A study of Mus musculus with 2 samples.

Results

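The vascular endothelial growth factor (VEGF) system was described in 14837 cells, a line of mouse pancreatic ductal adenocarcinoma (PDAC), through 9 genes: the ligands Vegfa, Vegfb, Vegfc and Pgf, the receptor kinases Flt1, Kdr and Flt4, and the co-receptors Nrp1 and Nrp2. The genes were chosen by symbol, and each of the 9 matched exactly 1 of the 21983 gene entries in the deposited count table. Together they held 16679 of the library's 21269197 counts, or 0.0784%.

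The cells, from the C57BL/6 strain, were maintained in DMEM containing 10% serum (FBS) with penicillin at 100 U/ml, and then spent 48 h in medium conditioned by cancer-associated fibroblasts (CAFs), the stromal cells that surround pancreatic tumours. A companion library was made from 14837 cells kept in medium conditioned by 14837 cells. The series' title names nucleosides secreted by the tumour's surroundings as its subject. Of the table's 2 value columns, 1 could be tied by its name to the CAF-medium library. The labels of neither library held the other column's name, so no use was made of it and no contrast between media is given. Every value below is a level within the 1 CAF-medium library, without a replicate and without a test. Intervals are exact 95% intervals, Poisson for a count, binomial for a share or a ratio, and cover counting error only.

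VEGF ligands are secreted dimers that bind receptor tyrosine kinases, best known from endothelial cells, where they drive the growth of vessels. VEGFA acts mainly through KDR (VEGFR2) and also binds FLT1 (VEGFR1), VEGFB and placental growth factor (PGF) bind FLT1, and VEGFC acts on lymphatic vessels through FLT4 (VEGFR3). Neuropilins have no kinase activity of their own, bind VEGF ligands alongside these receptors, and also bind class 3 semaphorins. In solid tumours, cancer cells are a common source of VEGFA, while the kinases are found chiefly on the vessels.

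Vegfa stood at 669 CPM (counts divided by the library total and multiplied by 1000000), above 98.7% of the genes with at least 10 counts. Divided by gene length, Vegfb stood above 83.1% of those genes, and above 55.8% of them by CPM alone. The receptor for most VEGFA signalling, Kdr, was listed at 0, as was Vegfc, and Flt4 had 3 counts. Divided by length, Flt1 and Nrp2 each stood above 24.1% of the genes with at least 10 counts, Pgf above 9.45% and Nrp1 above 5.36%. By CPM alone these shares were 46.9% for Flt1, 43.6% for Nrp2, 8.54% for Pgf and 12.3% for Nrp1.

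Promoters of 3 members are printed because they belong to the ligand with the most counts (Vegfa), the receptor kinase with the most counts (Flt1) and the receptor kinase listed at 0 (Kdr). Each runs from 250 bases before to 50 bases after the first start in RefSeq's GRCm38.p6 annotation, is written on the gene's own strand (minus for all 3), and has every GGGCGG, read on either strand, in capitals. This hexamer is the GC box, known as a site for the SP1 family of transcription factors. The windows are chr17:46032328-46032627 for Vegfa, chr5:147725962-147726261 for Flt1 and chr5:75978406-75978705 for Kdr.
Vegfa: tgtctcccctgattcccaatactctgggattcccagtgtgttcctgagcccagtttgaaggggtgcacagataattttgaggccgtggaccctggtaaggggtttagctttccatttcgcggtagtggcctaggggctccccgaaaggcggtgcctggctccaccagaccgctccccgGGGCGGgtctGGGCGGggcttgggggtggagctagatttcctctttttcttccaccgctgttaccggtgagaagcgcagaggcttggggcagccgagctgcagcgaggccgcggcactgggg
Flt1: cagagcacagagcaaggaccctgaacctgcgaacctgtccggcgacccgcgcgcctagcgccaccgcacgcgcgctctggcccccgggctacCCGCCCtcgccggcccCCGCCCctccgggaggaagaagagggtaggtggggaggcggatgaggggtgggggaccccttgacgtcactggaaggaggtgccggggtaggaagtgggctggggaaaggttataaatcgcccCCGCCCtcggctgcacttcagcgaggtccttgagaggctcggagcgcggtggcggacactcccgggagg
Kdr: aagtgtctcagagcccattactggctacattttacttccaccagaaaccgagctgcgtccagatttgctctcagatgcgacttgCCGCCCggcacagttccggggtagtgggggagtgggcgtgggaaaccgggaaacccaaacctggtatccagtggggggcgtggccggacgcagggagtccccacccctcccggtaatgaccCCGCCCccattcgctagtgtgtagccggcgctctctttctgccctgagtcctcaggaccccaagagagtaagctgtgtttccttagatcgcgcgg

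The windows of members listed at 0 lay within the range of the other members in CpG content. The Vegfa window held 2 GC boxes, the Flt1 window 3 and the Kdr window 2, and across the 32851 RefSeq promoters of this length 35.7% held at least 1. Among first promoters, the share with a GC box was 65.7% for genes with at least 10 counts and 22.6% for genes listed at 0. The Vegfa window had 16 CpG dinucleotides, the Flt1 window 29 and the Kdr window 19. Vegfc, also listed at 0, had 35 CpG and 2 GC boxes at its start, and Flt4, with 3 counts, had 26 CpG and 3 GC boxes. For comparison, the median first promoter had 21 CpG (quartiles 13 and 29) over 9132 genes with at least 10 counts and 3 CpG (quartiles 1 and 9) over 5728 genes listed at 0. Thus Kdr and Vegfc were listed at 0 with a CpG content above the upper quartile of genes listed at 0. Nrp2 had the most CpG of the 9 first promoters, 37, with 5 GC boxes, and Nrp1 the fewest, 14, with 1 GC box. Vegfb had 31 CpG and 4 GC boxes, and Pgf 23 CpG and 2 GC boxes.

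**Figure D1:**
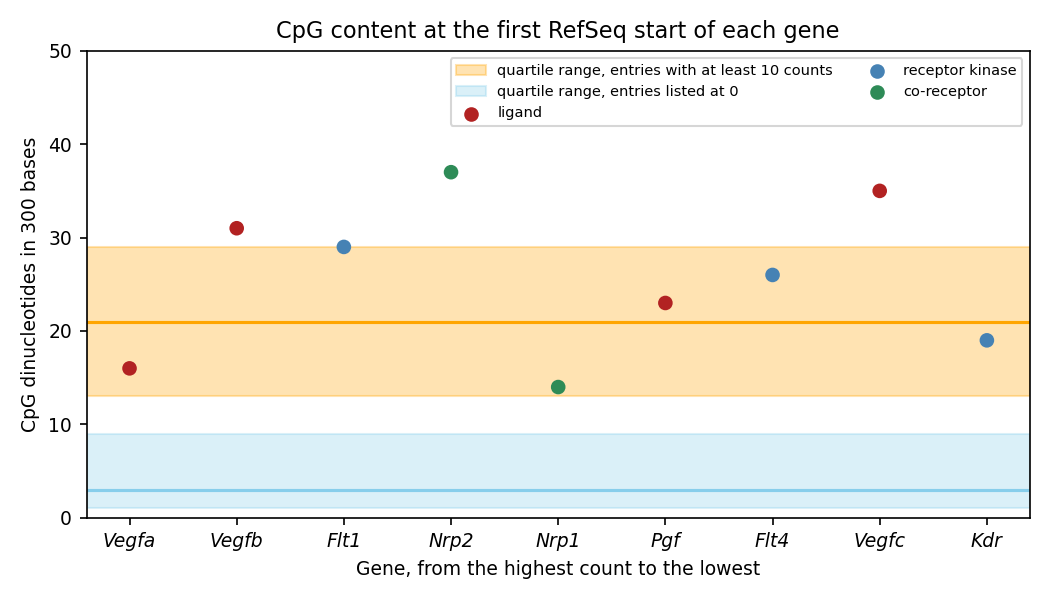
Number of CpG dinucleotides (vertical axis) in the 300 bases around the first RefSeq start of each member, ordered from the highest count to the lowest, with the median (line) and quartile range (band) of genes with at least 10 counts (orange) and genes listed at 0 (blue). All 9 points lie above the blue band, including Vegfc at 35 and Kdr at 19, both listed at 0.

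A few other motifs were searched on both strands in the same windows. The core of the hypoxia response element, searched as ACGTG and in the spelling GCGTG, was found in either form in 43.8% of all promoters, and neighbouring matches may share bases. It had no match in the first Vegfa window, 1 GCGTG match in the Flt1 window and 2 in the Kdr window. The second Vegfa start in RefSeq, whose window is chr17:46025114-46025413, held both spellings once. TATAAA, found in 13.6% of all promoters, was present once in the Flt1 window and in no other member's window. A match or its absence describes these letters only.

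Vegfa, the main angiogenic ligand, had 14234 counts, or 669 CPM (658 to 680.3). It ranked 151st of the 21983 entries by count, of which 11569 (52.6%) reached 10 counts and 8056 (36.6%) were 0. The gene lies on chromosome 17, 46016993 to 46032369, minus strand (mm10, GENCODE M21), with no exon shared with another gene and no transcript window found elsewhere. Longer genes collect more counts, so genes are compared here by CPM per kilobase of all annotated exons. On that scale Vegfa stood at 156 CPM per kilobase (154 to 159), 19.2 times the median of 8.14 CPM per kilobase over genes with at least 10 counts. Its neighbours in the order of CPM per kilobase were the chaperonin subunit Cct8 at 157, the mitochondrial co-chaperonin Hspe1 at 156, the 14-3-3 protein gene Ywhaz at 155 and the cytokine gene Il33 at 155. Vegfa thus stood 212th of 21871 entries with a known length.

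Vegfb and Pgf, the ligands that act through FLT1, were far apart. Vegfb (chromosome 19, 6982473 to 6987651, minus strand) had 1006 counts, or 47.3 CPM (44.4 to 50.3), and 29.5 CPM per kilobase (27.7 to 31.3). It is a short gene, with 1.605 kilobases of exon, so it stood above 55.8% of genes with at least 10 counts by CPM but above 83.1% by CPM per kilobase. Pgf (chromosome 12, 85166635 to 85177790, minus strand) collected 36 counts, giving 1.69 CPM (1.19 to 2.34) and 0.583 CPM per kilobase (0.408 to 0.807). Per kilobase, Vegfb was 50.5 times Pgf (36.3 to 72.6), and Vegfa was 5.3 times Vegfb (4.97 to 5.66) and 268 times Pgf (193 to 383). By counts alone Vegfa to Vegfb was 14.1, and per kilobase of coding sequence Vegfb to Pgf was 21.9 and Vegfa to Pgf 163.

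Vegfc, the ligand of lymphatic growth (chromosome 8, 54077606 to 54187096, plus strand), was listed at 0. A count of 0 in 21269197 allows up to 3 counts, or 0.141 CPM, a one-sided 95% limit for counting error only, set apart from the intervals of the other members. Genes that most cells use, Atp5a1 of the ATP synthase and Uqcrc1 of the respiratory chain, were also listed at 0 in this table. A 0 here is therefore not read as a lack of expression, and no ratio to it is given. Of all ligand counts, Vegfa held 93.2% (92.8 to 93.6), Vegfb 6.59% (6.2 to 6.99) and Pgf 0.236% (0.165 to 0.326). Per kilobase, the Vegfa share of the summed ligand level was 83.9% and that of Vegfb 15.8%.

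**Figure D2:**
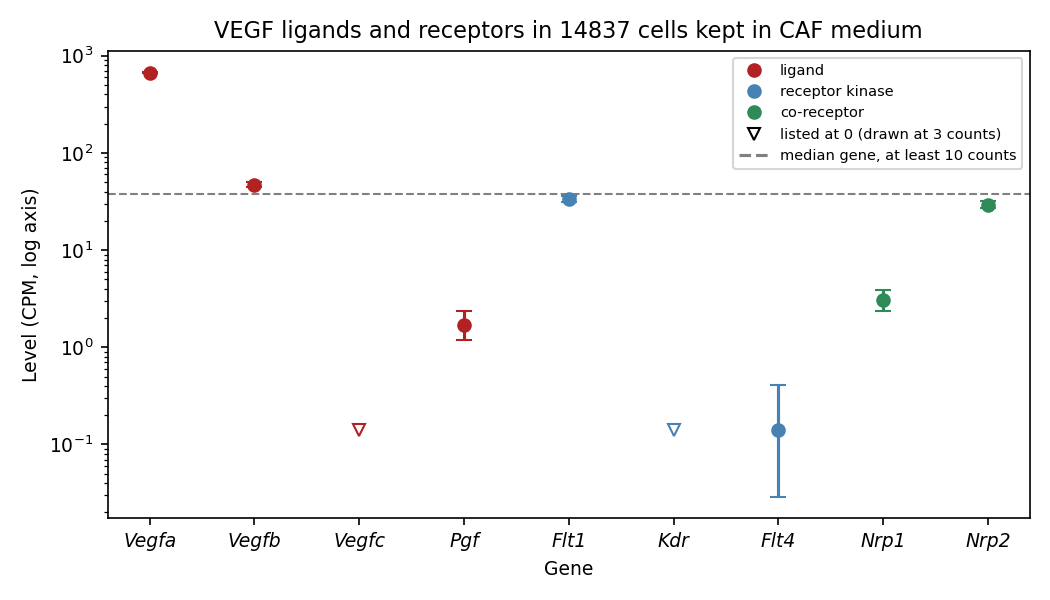
Level of each member in CPM (log axis) in the CAF-medium library, with exact Poisson 95% intervals as bars, coloured by role, and the median gene with at least 10 counts (37.9 CPM) as a dashed line. Levels here are not divided by length. Vegfa and Vegfb are the only members above the line, and Vegfc and Kdr, listed at 0, are drawn as open triangles at 3 counts.

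Among the receptor kinases, Flt1 was alone in having more than 3 counts. FLT1 binds VEGFA tightly but signals weakly, and a shorter secreted form acts as a trap for the ligand. Flt1 (chromosome 5, 147561604 to 147726011, minus strand) had 712 counts, or 33.5 CPM (31.1 to 36.0). Because its exons span 13.504 kilobases, its level per kilobase was 2.48 (2.3 to 2.67), 0.305 times the median gene, above 24.1% of genes with at least 10 counts. By CPM alone Flt1 was 0.883 times the median gene, above 46.9% of those genes. GENCODE M21 lists 2 coding Flt1 transcripts, for proteins of 1333 and 688 residues, the full receptor and the short form without a kinase domain. The deposited counts are per gene, so the share of each form was not measured.

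Kdr and Flt4, the kinases through which VEGFA and VEGFC mainly signal, had almost no counts. Kdr (chromosome 5, 75932827 to 75978458, minus strand) was listed at 0, with the same limit of 0.141 CPM. Flt4 (chromosome 11, 49609263 to 49652739, plus strand) collected 3 counts, giving 0.141 CPM (0.0291 to 0.412). Flt1 had 145 times the level of Flt4 per kilobase (49.3 to 703), a ratio whose wide interval comes from the 3 counts of Flt4. Vegfa had 63 times the level of Flt1 per kilobase (58.4 to 68), 39.9 times with the longest transcript and 20.0 times by counts alone.

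The co-receptors were both present, with Nrp2 above Nrp1. NRP2 is known as a partner of FLT4 for VEGFC and of plexins for semaphorin 3F, and NRP1 as a partner of KDR for VEGFA and of plexins for semaphorin 3A. Nrp2 (chromosome 1, 62703285 to 62818695, plus strand) collected 623 counts, giving 29.3 CPM (27.0 to 31.7) and 2.47 CPM per kilobase (2.28 to 2.68). Nrp1 (chromosome 8, 128358604 to 128503363, plus strand) collected 65, giving 3.06 CPM (2.36 to 3.9) and 0.312 CPM per kilobase (0.241 to 0.398). Nrp2 was thus 7.92 times Nrp1 per kilobase (6.13 to 10.4), or 5.2 times with the longest transcript. Both stood below the median gene, Nrp2 above 24.1% and Nrp1 above 5.36% of genes with at least 10 counts on the per-kilobase scale. By CPM alone Nrp2 stood above 43.6% and Nrp1 above 12.3% of those genes. Exons of a microRNA gene, Mir1903, overlap 0.818% of the Nrp1 exon bases.

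The order of the 7 members with counts, by CPM per kilobase of all exons, was Vegfa, Vegfb, Flt1, Nrp2, Pgf, Nrp1 and Flt4. Most steps were larger than counting error: Vegfb was 11.9 times Flt1 (10.8 to 13.1), Nrp2 4.24 times Pgf (3.03 to 6.11) and Nrp1 18.2 times Flt4 (5.97 to 90.7). The sizes of these steps depend on the length used. Vegfb to Flt1 was 7.61 per kilobase of the longest transcript and 1.41 by counts alone, and Nrp2 to Pgf was 17.3 by counts alone. Nrp1 to Flt4 was 37.2 per kilobase of the longest transcript. Flt1 and Nrp2 could not be ordered, with a ratio of 1.0 (0.899 to 1.12), and Nrp2 was the higher of the pair per kilobase of coding sequence, with a Flt1 to Nrp2 ratio of 0.798 (0.716 to 0.89). Pgf was 1.87 times Nrp1 per kilobase of all exons (1.21 to 2.85). Per kilobase of the longest transcript it was 0.971 times Nrp1 (0.627 to 1.48), which turns their order within counting error. By counts alone Pgf was 0.554 times Nrp1 (0.358 to 0.845), which turns the order beyond counting error. Vegfa and Vegfb held the top places and Flt4 the last under all 3 measures of length.

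**Figure D3:**
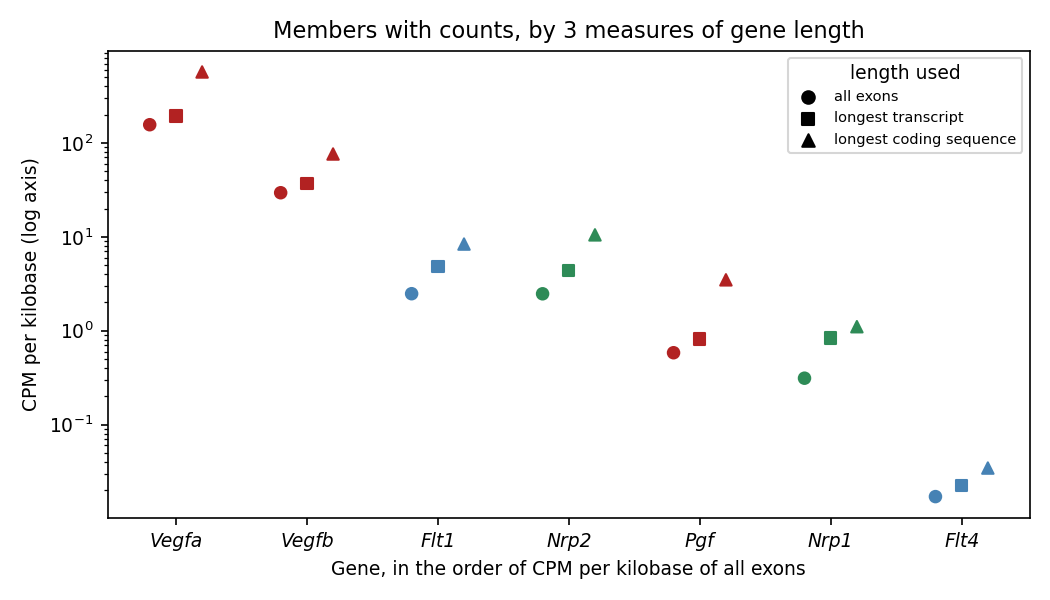
Level of the 7 members with counts in CPM per kilobase (log axis), with length taken as all annotated exons (circles), the longest transcript (squares) or the longest coding sequence (triangles), coloured red for ligands, blue for receptor kinases and green for co-receptors. Vegfa is highest and Flt4 lowest by each measure, while Flt1 and Nrp2 at 2.48 and 2.47 per kilobase of all exons exchange places with the coding length.

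**Figure D4:**
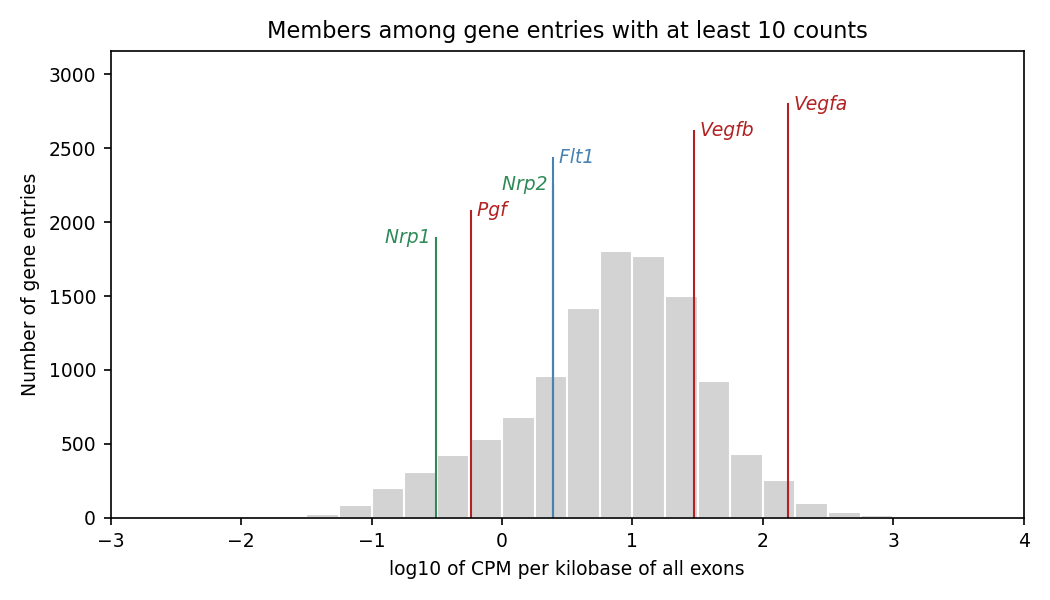
Number of gene entries (vertical axis) by log10 of CPM per kilobase of all exons, over entries with at least 10 counts, with a line for each of the 6 members that reached 10 counts. Vegfa at 156 and Vegfb at 29.5 CPM per kilobase lie right of the median of 8.14, and Flt1, Nrp2, Pgf and Nrp1 lie left of it, with the lines of Flt1 and Nrp2 on top of each other.

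Several of these genes have annotated transcripts for proteins of different lengths, and the counts per gene do not resolve them. For Vegfa, GENCODE M21 lists 8 coding transcripts with 6 protein lengths between 146 and 392 residues. Some VEGFA forms are known to differ in how strongly they bind heparan sulfate and neuropilins. Nrp2 has 6 coding transcripts between 901 and 931 residues, and Vegfb 2, of 188 and 207 residues.

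Genes known to act on Vegfa transcription or on the stability of its message were all present. Every one of the 20 reached 10 counts, against 52.6% of all entries. The median was 154 CPM, and 16 exceeded the median gene. Here and in the lists below, the median gene is that of the 11569 entries with at least 10 counts. Most of the 21983 entries lie below it, so counts above it are not to be set against an even split. Atf4, a stress-response transcription factor, stood at 1149 CPM, the immediate early factor Egr1 at 668 CPM and the oxygen-regulated Hif1a at 454 CPM. Zfp36l2, of a family that binds AU-rich messages, stood at 402 CPM. By contrast Epas1, which encodes the related oxygen-regulated factor HIF2A and was picked out after its value was seen, had 152 counts, or 7.15 CPM.

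Of 17 genes for the secretion and processing of VEGF ligands, 8 reached 10 counts and 8 were listed at 0, against 52.6% and 36.6% of all entries. The median of those 8 was 107 CPM, and that of all 17 was 0.047 CPM. Hyou1, an endoplasmic reticulum chaperone, stood at 741 CPM, and the proprotein convertase Furin, which cleaves the precursor of VEGFC, at 302 CPM. The membrane protease Mmp14 stood at 173 CPM and the lysosomal protease Ctsd at 170.3 CPM, with 34.4% of the exon bases of Ctsd overlapped by other genes. Ccbe1 and Adamts3, which together activate VEGFC, were both listed at 0, as were Pcsk5, Adamts1, Plg, Mmp2, Mmp3 and Mmp7, and Mmp9 had 1 count.

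Class 3 semaphorins and plexins, a group that includes partners of neuropilins, differed widely in level. Of 12 such genes, 11 reached 10 counts (median 41.7 CPM), against 52.6% of all entries. By CPM 6 exceeded the median gene, and per kilobase 3 did. The plexins Plxna1 and Plxnd1 stood at 152 and 82.4 CPM, and the secreted semaphorins Sema3c and Sema3e at 143 and 71.6 CPM. The genes of semaphorins 3F and 3A, named above with NRP2 and NRP1, were lower, at 7.95 CPM (Sema3f) and 1.93 CPM (Sema3a). Heparan sulfate is the sugar chain that holds longer VEGFA forms at the cell surface. Of 23 genes for its core proteins and synthesis, 15 reached 10 counts, against 52.6% of all entries. The median of those 15 was 115 CPM, and that of all 23 was 39.2 CPM. Agrn, Sdc4, Hspg2 and Sdc1, all core proteins that can carry heparan sulfate, stood at 458, 370.2, 237 and 171 CPM. Of the 23 genes, 8 were listed at 0, against 36.6% of all entries.

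Signalling genes that act below VEGF receptors, most of them shared with other receptor kinases, were mostly present. Of 45 listed, 40 reached 10 counts (median 85.5 CPM), against 52.6% of all entries, and 32 exceeded the median gene. Rac1 stood at 433 CPM, with 51.4% of its exon bases overlapped by other genes, Cdc42 at 320.0 CPM and the adaptor Shc1 at 304 CPM. The members under 10 counts were Nos3, the endothelial nitric oxide synthase, with 3 counts, Plcg2 with 1, and Pik3r2, Prkcb and the endothelial cadherin Cdh5, listed at 0.

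Of 36 other angiogenic ligands and receptors, 22 reached 10 counts, against 52.6% of all entries, and 8 exceeded the median gene. That median was taken over the 52.6% of entries with at least 10 counts, so the 8 are not read as few. The median of those 22 was 26.7 CPM, that of all 36 was 0.94 CPM, and that of members with at least 100 counts was 68.8 CPM. Efnb2, an ephrin of arterial vessels, stood at 249 CPM, the matricellular Cyr61 at 133 CPM, the hepatocyte growth factor receptor Met at 93.8 CPM and the matricellular Ctgf at 87.3 CPM. Among 13 inhibitors of angiogenesis, 7 reached 10 counts and 5 were listed at 0, shares close to those over all entries (52.6% and 36.6%). The median was 5.12 CPM over those 7, 0.893 CPM over all 13 and 39.2 CPM over members with at least 100 counts. Timp2 and Timp1, inhibitors of metalloproteinases, stood at 258 and 71.9 CPM, followed by Thbs1 at 6.39 CPM and Vash2 at 5.12 CPM. Among the genes of both lists with an annotated length, Timp1 was highest per kilobase, at 81.0 CPM per kilobase against 156 for Vegfa.

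**Figure D5:**
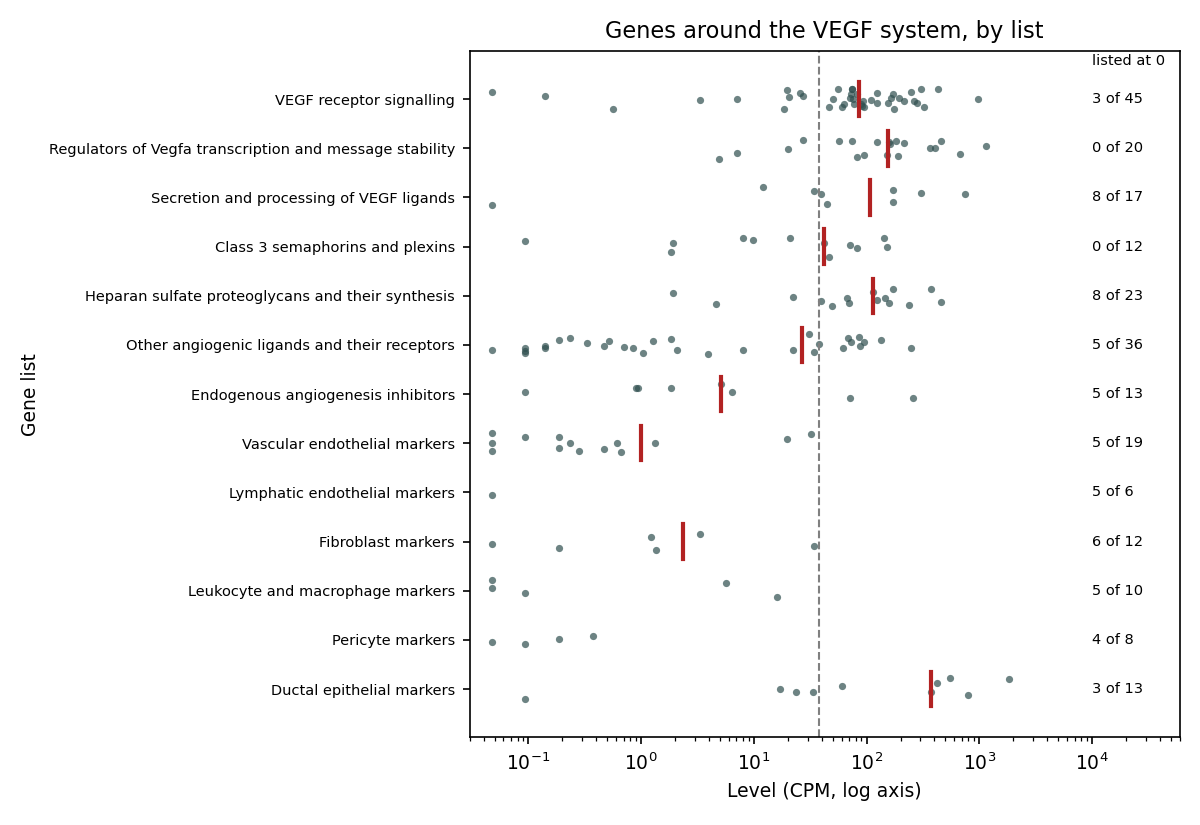
Level in CPM (log axis) of each gene with counts in 13 lists, 1 point per gene with random vertical spread, with the median of members with at least 10 counts as a red bar (where at least 3 reached it), the median gene of the library as a dashed line, and the number listed at 0 at the right. The regulators of Vegfa have the highest median of the lists outside the ductal markers, 154 CPM. The endothelial, lymphatic, fibroblast, leukocyte and pericyte marker lists all lie below the dashed line throughout.

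Among markers of vascular endothelial cells, the usual carriers of VEGF receptors, only Sox17 and Ptprb came near the levels of Flt1 and Nrp2. The other markers were far lower. In bulk RNA, fewer cells of a type and less RNA per cell cannot be told apart. Of 19 vascular endothelial markers, 6 had at least 10 counts, against 52.6% of all entries. None exceeded the median gene, and the list summed to 55.8 CPM. Most of that sum came from Sox17 at 32.1 CPM (6.73 CPM per kilobase, above Flt1 and Nrp2) and Ptprb at 19.5 CPM (1.46 CPM per kilobase), while Esam stood at 1.32 CPM and Plvap at 0.658 CPM. Pecam1 had 5 counts and Vwf 4, and Cdh5, Robo4, Erg, Cldn5 and Clec14a were listed at 0, against 712 counts of Flt1. Of 6 lymphatic markers 5 were listed at 0, against 36.6% of all entries, and Reln had 1 count. None of 8 pericyte markers reached 10 counts, against 52.6% of all entries. The part of other cell types in the Flt1 and Nrp2 levels was not tested.

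Ductal epithelial markers had the highest summed level of the marker lists. Of 13 ductal epithelial markers, 9 reached 10 counts, against 52.6% of all entries. The median of those 9 was 370.0 CPM, and that of all 13 was 33.3 CPM. The list summed to 4089 CPM and was led by the keratins Krt18, Krt8, Krt7 and Krt19 at 1819, 797, 550.2 and 418 CPM. Other genes shared 23.5% of the Krt8 transcript windows. The epithelial adhesion gene Epcam had 2 counts, with Cldn4 and Cldn7 listed at 0. Of 12 fibroblast markers, 4 had at least 10 counts, against 52.6% of all entries. The list summed to 40.3 CPM, most of it Pdgfra at 34.2 CPM. Tagln followed at 3.29 CPM (67.9% of its exon bases overlapped by other genes), with Col1a1 at 1.36 and Fap at 1.22 CPM. The collagen and matrix genes Col1a2, Col3a1, Dcn, Lum and Postn and the surface marker Thy1 were listed at 0. Of 10 leukocyte and macrophage markers, 2 had at least 10 counts, against the same 52.6% of all entries. They were Cd14 at 15.9 CPM and Cd68 at 5.69 CPM, and the pan-leukocyte Ptprc had 1 count.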

How the data were processed

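How RNA was selected, how reads were counted and on which strand is not given in the sources used here, nor is the annotation. Per the labels' protocols, total RNA was isolated with Trizol, and 2 ug went into library construction. The submitters' processing notes name mm10, StringTie and HISAT2 2.1.0 without their roles. The deposited values are whole-number counts per gene symbol made by the authors, not scaled. Of 2 value columns, 1 was not used because its name matched neither sample, so the planned comparison of media and its scaling alternatives were not made.

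CPM is the count divided by the column total of 21269197, times 1000000. Lengths came from GENCODE M21 (GRCm38, the assembly behind mm10), which matched 99.5% of entries. Exon overlaps and 64-base transcript windows taken every 16 bases and found in other genes were computed for members and listed genes. Entries with 10 to 99 counts were multiples of 3 in 36.0% of cases, against 33.3% of whole numbers. The gap was not tested, and it cannot show whether counts are plain read numbers. Counts may not be plain read numbers, and intervals may then be too narrow. PCR copies are not independent molecules either.

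The members, 13 gene lists and most gene pairs were chosen with earlier results of these data known. Pairs of neighbours in the order of levels were added after these values were seen. Named genes are all members and up to 4 of the highest members per list with at least 10 counts, plus those behind a count of 5 or fewer. Some genes that meet it are not named here. Other genes listed at 0 or with few counts were named after their values were seen. Ccn1 and Ccn2 were found under the synonyms Cyr61 and Ctgf. Promoters were taken from RefSeq (GRCm38.p6), where all 9 members matched. Intervals came from scipy 1.17.1 and tables from pandas 2.3.3 with numpy 2.4.6, under Python 3.11.15, and plots from matplotlib 3.10.9.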

Additional observations from a re-analysis of the deposited data

How the results depend on the processing

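With 1 library there was no replicate to leave out, and the comparison of media with its scaling alternatives was not run. No paired analysis was possible because 1 library was used and the labels give no shared replicate numbers. Leaving genes of the mitochondrial genome out of the total kept all 7 non-zero levels within their counting intervals. Leaving out the 100 highest entries raised every level 1.16-fold, to 773 CPM for Vegfa, 54.6 for Vegfb, 38.7 for Flt1 and 33.8 for Nrp2.

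The percentile of a member depends on the genes it is ranked against. With no minimum the percentiles were 99.3 for Vegfa, 76.7 for Vegfb, 72.1 for Flt1, 70.3 for Nrp2, 53.8 for Nrp1 and 51.9 for Pgf. With a minimum of 100 counts they were 98.5, 47.7, 37.2 and 33.2 for Vegfa, Vegfb, Flt1 and Nrp2. Per kilobase they were 98.2, 83.1, 24.1 and 24.1 for the same genes and 5.36 for Nrp1.

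Ratios depend on the length. Per kilobase of the longest transcript, Nrp2 to Nrp1 was 5.2, Flt1 to Nrp1 5.79, Vegfb to Flt1 7.61, and Vegfa to Nrp1, Nrp2 and Flt1 231, 44.5 and 39.9. Per kilobase of coding sequence, Vegfa to Vegfb was 7.47, Vegfa to Pgf 163, Vegfa to Nrp2 54.3, Vegfb to Pgf 21.9, Vegfb to Flt1 9.1, Nrp2 to Pgf 3.01 and Pgf to Nrp1 3.16. Without division by length, Vegfa to Vegfb was 14.1, Vegfa to Pgf 395, Vegfb to Pgf 27.9, Vegfa to Nrp1 219, Vegfa to Nrp2 22.8, Vegfa to Flt1 20.0, Flt1 to Nrp1 11.0, Vegfb to Flt1 1.41, Flt1 to Nrp2 1.14 and Nrp2 to Pgf 17.3. The order turned for Flt1 to Nrp2 with the coding length (0.798) and for Pgf to Nrp1 with the longest transcript (0.971) and without length (0.554). These shifts follow from the lengths alone. Of the list medians, 8 moved over 1.5-fold with no minimum and 4 with a minimum of 100 counts. Depth limits Flt4, Pgf and Nrp1 most, with 3, 36 and 65 counts.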
